A study of Mus musculus with 6 samples.

Results

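The 10 genes described here, Calml3, Tmprss11a, Sdc1, Anxa8, Emp1, Mal, Trim29, Fam83a, Aldh3a1 and Tgfbi, were grouped as surface epithelial genes other than keratins and junction genes. They were taken by symbol from the 23420 genes of a retinal RNA-seq count table, and all 10 had a row. They had been chosen by their measured levels, selected on being higher in both libraries of minocycline-treated mice. Their levels and fold changes with minocycline are therefore given as a description. For the 10 genes, the comparison of light-exposed with control retinas, which does not use the minocycline libraries, is the one read as a test, although its light-exposed libraries had been the low group of that selection. Other genes and marker lists were tested in all 3 comparisons.

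Stratified surface epithelia such as those of the cornea and conjunctiva renew from basal cells and lie outside the neural retina. Their cells carry calcium-binding proteins, surface proteoglycans, membrane proteases and, in the cornea, very large amounts of a few soluble enzymes. The retina itself is built of photoreceptors, neurons and Müller glia, with microglia as its resident immune cells, and minocycline is a tetracycline antibiotic known to dampen microglial reactivity.

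Control retinas came from untreated mice, and light-exposed retinas from mice examined 4 days after 1 h of bright light. Minocycline retinas came from mice given the same light and injected with minocycline at 45 mg/kg. Each group had 2 libraries of retina, and the labels name no transgene or deleted gene. The sample labels give the strain CD1, 10000 lux and 4 days of minocycline, whereas the methods describe BALB/cJ mice of 10 to 14 weeks, both sexes, 15000 lux and 5 days of minocycline. By the methods, injections began 1 day before the light, with 2 per day on the first 2 days. No vehicle injection is stated for these light-exposed retinas, so injection and drug cannot be told apart. Since a single header is used for both minocycline columns, their libraries are named minocycline A and B here, without a replicate number. Whether mice or retinas were pooled is not given in the sources used here, and p-values from groups of 2 measure only the spread between these libraries.

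Total counts ranged from 15205930 to 22856922 per library. Levels are given as CPM, the count scaled to the library size after adjustment by the trimmed mean of M-values (TMM). A gene without counts could still reach 3 counts by chance, which corresponds to 0.131 to 0.214 CPM across the libraries and covers counting error only. Control 1 stood apart with an Xist count, which marks female tissue, of 77778 against 25 to 188 in the other libraries. Rod genes were abundant in all libraries, with a summed level of at least 43782 CPM for 10 genes.

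The highest of the 10 genes with minocycline was Aldh3a1 on chromosome 11 (chr11:61207537-61218421, plus strand, GRCm38), an aldehyde dehydrogenase that accumulates in the corneal epithelium. It measured 1.499 and 0.141 CPM in control 1 and 2, 0.932 and 3.13 CPM in light-exposed 1 and 2, and 45.4 and 43.9 CPM in minocycline A and B. Both minocycline libraries lay at least 14.04-fold above the higher light-exposed library, while control and light-exposed libraries overlapped. The fitted log2 fold change with minocycline was 4.43 (SE 0.47) against light-exposed and 5.81 (SE 0.61) against control.

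Calml3 (chr13:3802896-3804316, minus strand) encodes a calmodulin-like calcium sensor of epithelial cells. Its levels were 0.785 and 0.141 CPM in the controls, 0.757 and 1.28 CPM after light, and 10.4 and 13.7 CPM with minocycline. Here too control and light-exposed libraries overlapped and both minocycline libraries were higher. Trim29 (chr9:43310848-43336115, plus strand), a tripartite motif protein, had 2 and 0 counts in the controls and 3 and 8 counts after light. It reached 62 and 68 counts with minocycline, or 2.71 and 3.60 CPM, and no value of another group came near these. Fam83a (chr15:57985419-58011009, plus strand), a signalling scaffold of epithelial and tumour cells, was listed at 0 counts in both controls and in light-exposed 1 and at 4 counts in light-exposed 2. With minocycline it had 43 and 56 counts, which is at least 11.4-fold higher than the controls when 3 counts are assumed for each control library. Anxa8 (chr14:34085981-34100571, plus strand), a calcium-dependent phospholipid-binding protein, had 1 or 2 counts in the controls, 1 and 5 counts after light, and 56 and 62 counts with minocycline. The ratio of its summed counts, corrected for library size, was 18.0 between minocycline and light-exposed, with a 95% counting interval of 8.04 to 50.1.

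Among the surface proteins, Tmprss11a (chr5:86410410-86468990, minus strand) encodes a transmembrane serine protease of airway and other surface epithelia. It had 2 and 1 counts in the controls, 1 and 4 counts after light, and 78 and 101 counts with minocycline. Its log2 fold change of 5.03 (SE 0.60) was the highest of the 10 between minocycline and light-exposed. Fam83a (4.49, SE 0.81) and Aldh3a1 (4.43, SE 0.47) were close, so this order is not resolved. Sdc1 (chr12:8771323-8793715, plus strand) encodes syndecan-1, a heparan sulfate proteoglycan of epithelial and plasma cells. Its levels were 0.642 and 0.422 CPM in the controls, 0.349 and 0.806 CPM after light, and 5.86 and 10.0 CPM with minocycline. The minocycline libraries were both above all others by at least 7.27-fold. Mal (chr2:127633226-127656695, minus strand) encodes a raft-associated proteolipid of apical transport that is also made by myelinating cells. Its levels were 2.35 and 1.83 CPM in the controls, 4.43 and 5.35 CPM after light, and 10.2 and 17.1 CPM with minocycline, so that the 3 groups did not overlap. The 10 listed myelin genes summed to 45.5 to 68.1 CPM over all libraries, with Mog at 0, and their sums with minocycline, 45.5 and 48.0 CPM, overlapped those of the controls.

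The remaining pair had a different profile. Emp1 (chr6:135362545-135383173, plus strand), an epithelial membrane protein of the PMP22 family, measured 1.499 and 1.34 CPM in the controls, 6.23 and 17.0 CPM after light, and 12.8 and 28.5 CPM with minocycline. Minocycline A thus lay below light-exposed 2, against the rule by which the gene had been selected. Tgfbi (chr13:56609523-56639562, plus strand) encodes a secreted matrix protein that is abundant in the cornea and carries the mutations of several stromal dystrophies. It measured 0.143 and 0.281 CPM in the controls, 1.34 and 2.89 CPM after light, and 3.59 and 2.96 CPM with minocycline. Tgfbi lay just inside the rule, with the lower minocycline library at 1.02 times the higher light-exposed library, and Emp1 lay just outside at 0.755 times. By raw counts or total library size Tgfbi also overlapped. The fitted log2 fold change against light-exposed was 0.84 for Emp1 and 0.63 for Tgfbi and rested on single libraries. For Emp1 it was 0.13 without minocycline B, 0.28 without light-exposed 1 and 1.72 without light-exposed 2, and for Tgfbi it was 0.18 without light-exposed 1 and 1.28 without light-exposed 2.

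**Figure D1:**
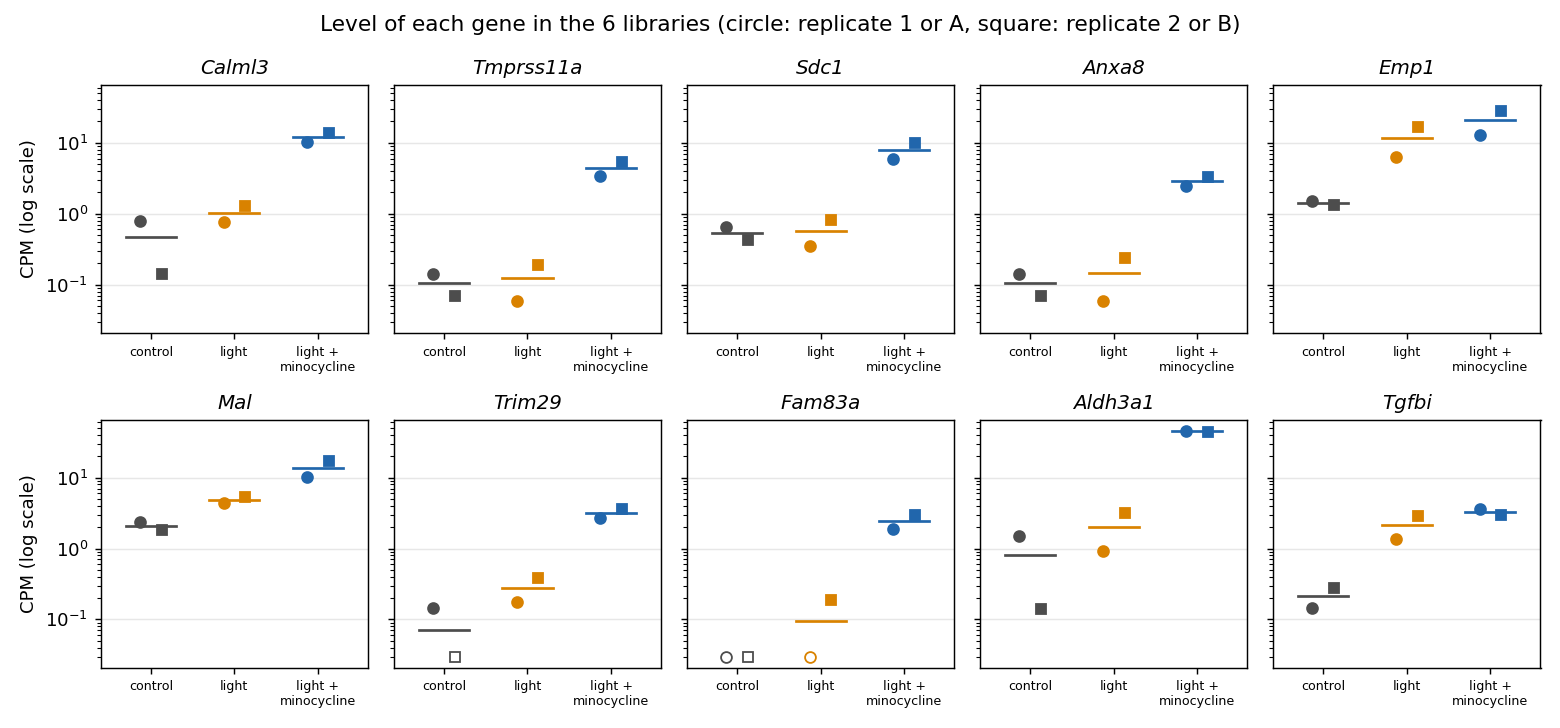
Level of each of the 10 genes in CPM on a log axis, with 1 point per library (circles for replicate 1 or A, squares for replicate 2 or B), a horizontal line at the mean of each group, and open symbols at the bottom for libraries with 0 counts. Aldh3a1 reaches 45.4 and 43.9 CPM with minocycline, whereas the Emp1 value of minocycline A, 12.8 CPM, lies below that of light-exposed 2, 17.0 CPM.

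Both minocycline libraries lay above the other 4 in 9 of the 10 genes, and in 5.31% of the 14713 genes that passed the filter over all libraries. Since the genes were selected for this, nothing is read from the difference. Against the light-exposed libraries alone, 9 of the 10 did not overlap, beside 26.8% of all genes tested, and against the controls all 10 did not overlap, beside 15.5%. A gene was called when its p from edgeR's quasi-likelihood test, adjusted by Benjamini-Hochberg, was under 0.05 and its log2 fold change was 2 or more in size. Between minocycline and light-exposed, 0.0136% of 14750 genes passed this threshold as higher and 0.0339% as lower, and between minocycline and control 0.134% of 14181 genes passed as higher and 0% as lower (230 genes were lower there at an unadjusted p under 0.05, and DESeq2 called 1). Of the 10 genes, Calml3 passed it in the former and all but Aldh3a1 in the latter. These counts use the values by which the genes were chosen, so they are a description and no test, and they moved with the settings between 0 and 7 and between 0 and 10. Both comparisons share the minocycline libraries, and all 10 genes passed the count filter in them.

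**Figure D2:**
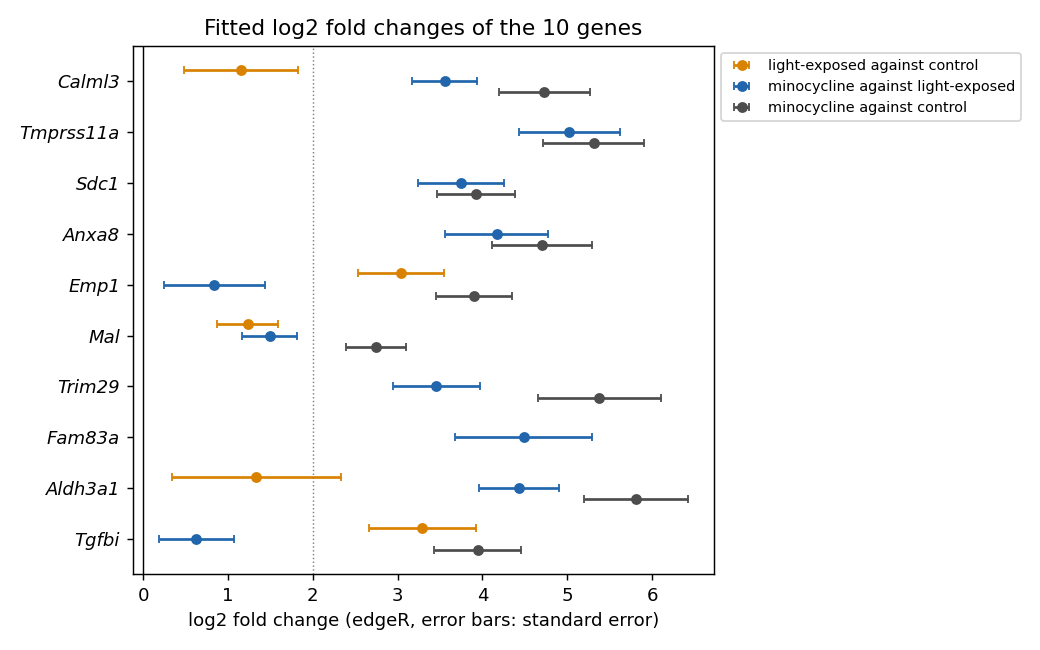
Fitted log2 fold changes with standard errors for each gene in the 3 comparisons; a dotted line marks the fold cutoff of 2, and genes that did not pass the count filter, as well as Fam83a against control (0 counts), are left out. Emp1 and Tgfbi sit at 3.04 and 3.29 for light-exposed against control and at 0.84 and 0.63 for minocycline against light-exposed, whereas Tmprss11a reaches 5.03 in the latter.

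The next question was whether light alone had changed these genes. Emp1 and Tgfbi rose after light. Emp1 increased from 1.42 ± 0.115 to 11.6 ± 7.59 CPM (SD, n = 2), a log2 fold change of 3.04 (SE 0.51, Benjamini-Hochberg adjusted p = 0.0142 by edgeR's quasi-likelihood test). Tgfbi increased from 0.212 ± 0.0979 to 2.12 ± 1.10 CPM (SD, n = 2), a log2 fold change of 3.29 (SE 0.64, adjusted p = 0.0154 by the same edgeR test). Light-exposed and control libraries of both genes did not overlap. In whole retina, a change in the number of cells of a type and a change in RNA per cell cannot be told apart.

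Only 5 of the 10 genes passed the count filter in this comparison, and 2 of these 5 were called higher, beside 2.89% of 14349 genes called higher and 0.0279% called lower. Emp1, Tgfbi and Mal had both light-exposed libraries above both controls, as did Trim29, which was not tested, and 30.1% of all tested genes did so. Mal had a log2 fold change of 1.23 (SE 0.36, adjusted p = 0.0493 by edgeR), below the fold cutoff. Calml3 and Aldh3a1 gave 1.16 (SE 0.67, adjusted p = 0.288 by edgeR) and 1.34 (SE 0.99, adjusted p = 0.438 by edgeR). Both values rested on single libraries. Without control 1 they were 2.81 and 3.82, without control 2 0.39 and 0.47, and without light-exposed 2 0.71 and 0.20.

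The other 5 genes had too few counts for a test in this comparison. Sdc1 had 15 counts in the controls and 23 after light, a ratio of 1.13 with a counting interval of 0.565 to 2.33. For Tmprss11a the ratio was 1.23 with an interval of 0.239 to 7.92, and for Anxa8 1.48 with an interval of 0.315 to 9.12. For Trim29 it was 4.06 with an interval of 0.886 to 37.7. Fam83a, with 0 counts in the controls and 4 after light, is given no fold. The intervals of the other 4 genes all include 1 and are wide, so a moderate change of these genes after light was not detectable at this depth. The direction of 3 of them rested on light-exposed 2. Without it, Sdc1 after light was at 0.349 CPM against a control mean of 0.532 CPM, and Tmprss11a and Anxa8 were each at 0.0582 CPM against 0.107 CPM.

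The calls of Emp1 and Tgfbi were lost when control 1 (log2 fold changes 3.11 and 2.89, edgeR adjusted p = 0.163 and 0.145), control 2 (2.96 and 3.84, adjusted p = 0.195 and 0.150) or light-exposed 2 (2.14 and 2.62, adjusted p = 0.154 and 0.146) was left out, although both stayed higher after light. Markers of other cells moved with this comparison. The 12 listed myeloid genes summed to 49.5 to 61.9 CPM in the controls, 560 to 1884 CPM after light and 53.2 to 118 CPM with minocycline, with none of them at 0 in every library. The 11 genes of reactive Müller cells and astrocytes summed to 312 to 419, 985 to 1307 and 378 to 481 CPM. After light edgeR called 1 of the 12 myeloid genes, Aif1, and 5 of the 11 reactive genes higher, beside 2.89% of all genes. Between minocycline and light-exposed it called 0 and 4 lower, beside 0.0339% of all genes. At an unadjusted p under 0.05, 12 and 11 were lower there, and DESeq2 called 12 and 4 lower. In both lists light-exposed 2 was the higher light-exposed library, as it was for Emp1 and Tgfbi, and minocycline libraries were far below the light-exposed ones, unlike Emp1 and Tgfbi. The 10 rod genes moved the other way, with sums of 105899 and 82703 CPM in the controls, 61641 and 43782 CPM after light, and 90128 and 96914 CPM with minocycline, and light-exposed 2 was lowest. All 10 had a log2 fold change below 0 after light, with a median of -0.83, and Nrl was the 1 with an edgeR adjusted p under 0.05. The part of these cells in the rise of Emp1 and Tgfbi was not tested.

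Promoter sequences from RefSeq (GRCm38.p6) were at hand for 6 of the 10 genes, with 7 start sites, as the 250 bases before each start. Calml3, Trim29, Fam83a and Aldh3a1 had no entry. Emp1, with 2 start sites, and Tgfbi are shown because they rose after light, and Sdc1 and Anxa8 because their windows held repeated CACCC matches. Capitals mark matches on either strand to an AP-1 element (TGANTCA) or a CACCC box (CCACCC, here read as its reverse complement). The windows are chr6:135362681-135362930 and chr6:135367243-135367492 for Emp1, chr13:56609336-56609585 for Tgfbi, chr12:8771146-8771395 for Sdc1 and chr14:34085729-34085978 for Anxa8, all on the plus strand and written 5′ to 3′.
Emp1, upstream start: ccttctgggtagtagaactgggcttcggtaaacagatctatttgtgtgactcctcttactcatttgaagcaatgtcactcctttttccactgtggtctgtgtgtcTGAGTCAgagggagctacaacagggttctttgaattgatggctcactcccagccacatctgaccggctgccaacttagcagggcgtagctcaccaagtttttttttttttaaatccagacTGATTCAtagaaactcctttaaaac
Emp1, downstream start: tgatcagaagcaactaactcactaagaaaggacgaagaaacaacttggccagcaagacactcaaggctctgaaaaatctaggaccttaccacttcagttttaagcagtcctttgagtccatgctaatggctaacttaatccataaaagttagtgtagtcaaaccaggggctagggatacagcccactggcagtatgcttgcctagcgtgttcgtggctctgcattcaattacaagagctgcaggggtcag
Tgfbi: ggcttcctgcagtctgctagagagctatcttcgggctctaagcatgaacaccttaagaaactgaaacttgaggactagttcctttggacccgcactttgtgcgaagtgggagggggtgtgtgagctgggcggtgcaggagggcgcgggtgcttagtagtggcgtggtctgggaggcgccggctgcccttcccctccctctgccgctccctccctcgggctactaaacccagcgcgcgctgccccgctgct
Sdc1: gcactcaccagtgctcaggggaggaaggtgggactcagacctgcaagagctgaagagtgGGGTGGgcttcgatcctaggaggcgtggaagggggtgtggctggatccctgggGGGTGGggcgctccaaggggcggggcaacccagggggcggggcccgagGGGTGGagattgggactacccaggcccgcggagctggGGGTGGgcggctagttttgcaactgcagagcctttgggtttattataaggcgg
Anxa8: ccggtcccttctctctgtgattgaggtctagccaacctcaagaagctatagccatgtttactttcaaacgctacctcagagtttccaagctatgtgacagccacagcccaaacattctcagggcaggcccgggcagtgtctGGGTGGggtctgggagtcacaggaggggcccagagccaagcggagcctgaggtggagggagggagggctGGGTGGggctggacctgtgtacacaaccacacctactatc

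The upstream Emp1 window held 2 AP-1 matches, at positions -145 to -139 and -25 to -19 from the start, and the downstream window held none. An AP-1 match occurred in 6.75% of the 32851 promoter windows of this length. CACCC matches stood in 2 of the 7 windows, 4 in that of Sdc1 and 2 in that of Anxa8, a share of windows close to the 28.1% of all windows with at least 1. Tgfbi, Mal and Tmprss11a held no match to either. None of the 7 windows held a grainyhead-like element (AACCNGTT, 1.79% of all windows), a TATAAA box (12.4%) or a p63 motif (1.63%). A match only describes the letters, and bound factors were not measured.

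Between libraries of the same group, most of the 10 genes leaned the same way. In the light-exposed group all 10 were higher in replicate 2 than in replicate 1, while 50.7% of all genes were, and the counting interval of the ratio lay above 1 for Emp1, Aldh3a1 and Tgfbi. Aldh3a1 differed most of these, by 3.36-fold with an interval of 1.92 to 6.21. In the controls 8 of the 10 were higher in replicate 1, with 48.8% of all genes higher in replicate 2, and the interval lay below 1 for Aldh3a1 (21 and 2 counts, ratio 0.0938) and Calml3 (11 and 2 counts, ratio 0.179). What else these libraries differed in was not tested against the genes.

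Minocycline B was higher than minocycline A in 8 of the 10 genes, against 48.5% of all genes. Emp1 showed the highest ratio, 2.23 (interval 1.93 to 2.57), followed by Sdc1 at 1.71 and Mal at 1.68. Calml3 lay at 1.32 (1.10 to 1.58), whereas Aldh3a1 was equal within counting error at 0.966 (0.881 to 1.06) and Tgfbi was at 0.826 (0.577 to 1.17). Summed counts of marker lists differed between these libraries too, in both directions. Summed keratin counts gave a ratio of 1.43 (1.37 to 1.49) and junction genes 1.47 (1.39 to 1.56), which lie inside the span of the 10 genes. Stroma and fibroblast genes gave 2.85 (2.69 to 3.01), smooth muscle genes 4.49 (4.27 to 4.72) and gland genes 4.47 (3.70 to 5.44). These lie above the ratio of every one of the 10 genes. Genes of pigment cells gave 2.09 (2.05 to 2.13), above all but Emp1. Lower in minocycline B were lens genes at 0.472 (0.396 to 0.560) and myeloid genes at 0.453 (0.421 to 0.487). Genes of reactive Müller cells and astrocytes were at 0.786 (0.763 to 0.810), and those of retinal neurons and Müller cells at 0.778 (0.771 to 0.786). Corneal crystallin-like enzymes were also lower at 0.890 (0.873 to 0.907). So were surface epithelial transcription regulators at 0.825 (0.798 to 0.853), most of whose counts came from Pax6. Other regulators were higher in minocycline B, such as Elf3 at 1.84 CPM in A and 3.39 CPM in B.

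**Figure D3:**
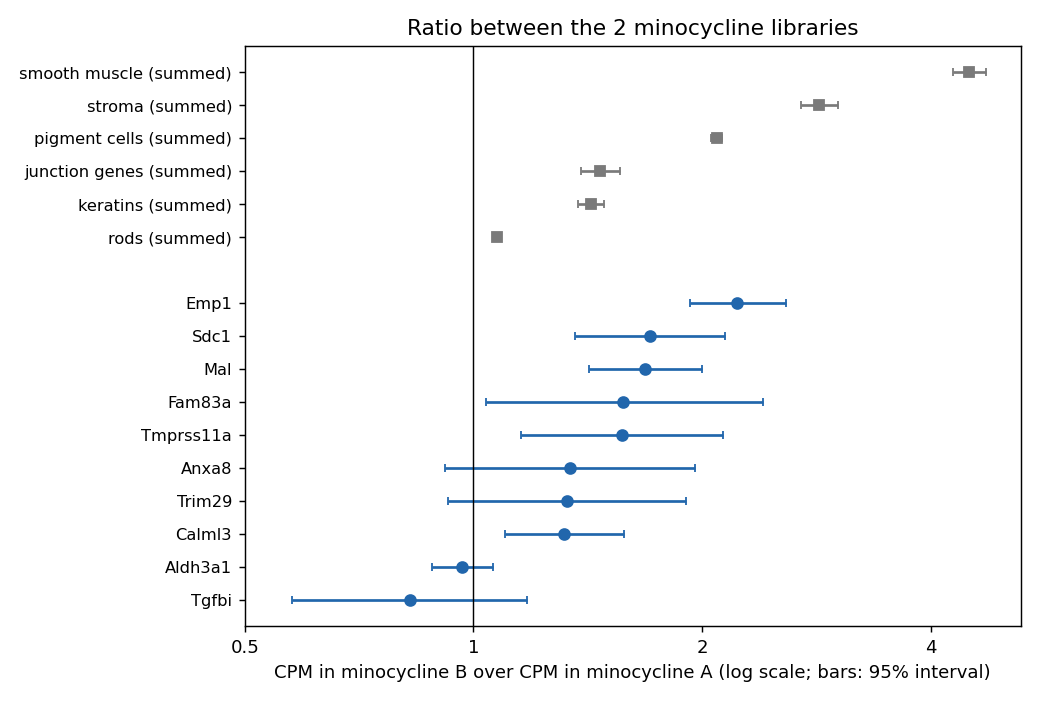
Level in minocycline B divided by the level in minocycline A on a log axis, with 95% counting intervals, for each of the 10 genes (circles) and for the summed counts of marker lists (squares). Aldh3a1 lies at 0.966 and Emp1 at 2.23, while smooth muscle genes together lie at 4.49.

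Other surface epithelial markers were examined beside the 10 genes to check what they stand for. They come from the same libraries and their results were known, so they are no independent support. Krt12, the keratin typical of corneal epithelium, had 36 and 6 counts in the controls, 43 and 128 after light, and 1798 and 2405 with minocycline. Krt5, a basal keratin, had 58 and 2, 32 and 100, and 1174 and 1360 counts. As for Aldh3a1 and Calml3, control 1 and light-exposed 2 were the higher libraries of their groups. The 14 keratins summed to 68.0 to 73.6 CPM in the controls, 56.5 to 63.3 CPM after light and 202 to 289 CPM with minocycline, with Krt16 at 0 throughout. Most of the control sum came from Krt18, a keratin of simple epithelia, at 64.8 and 64.3 CPM. Krt18 measured 56.1 and 42.0 CPM after light and 59.0 and 63.9 CPM with minocycline. Its log2 fold change with minocycline was -0.03 against control (edgeR adjusted p = 0.961) and 0.34 against light-exposed (edgeR adjusted p = 0.305), where the libraries did not overlap. After light, Krt15 was called higher among 6 tested keratins, with a median log2 fold change of 0.72. St14 was called higher among 4 tested surface and secreted proteins (median 0.84), and 0 of 10 tested junction genes were called (median 0.02). Over all genes 2.89% were called higher after light. Between minocycline and light-exposed, edgeR called 0 of the 8 tested keratins, with 5 higher at an unadjusted p under 0.05 and 4 called by DESeq2. Their median log2 fold change was 3.27 beside 0.01 over all genes. Of the 18 tested junction genes, Dsp was called higher (log2 fold change 4.78, edgeR adjusted p = 0.0444), with a median of 2.31. DESeq2 called 10 of them, and 15 were higher at an unadjusted p under 0.05. With DESeq2 size factors, upper quartile or total library size no gene was called higher, so the Dsp call was lost. Between light-exposed and control only 6 keratins and 10 junction genes passed the count filter. Genes that pass it through the minocycline libraries can raise these medians. Against control, Dsp, Dsc3, Dsg1a and Cldn4 were called among 17 tested junction genes, and the water channels Aqp3 and Aqp5 among 16 tested surface and secreted proteins, beside 0.134% of all genes. Of 8 keratins tested there edgeR called 0, with 6 higher at an unadjusted p under 0.05 and 2 called by DESeq2. With all 6 libraries in one fit, 0 genes were called against control. Between minocycline and light-exposed edgeR called 0 of 16 surface and secreted proteins. There 13 were higher and 1 lower at an unadjusted p under 0.05, and DESeq2 called 9 higher. The 25 measured genes of the latter list summed to 18.2 to 25.8 CPM in the controls, 32.7 to 34.2 CPM after light and 60.3 to 96.2 CPM with minocycline.

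To compare the genes with this epithelial marker inside each library, counts were expressed per 100 counts of Krt12, a measure chosen after the values had been seen. Aldh3a1 was 58.3 and 33.3 in the controls, 37.2 and 51.6 after light, and 57.8 and 34.5 with minocycline. Its highest and lowest ratio differed by 1.75-fold, while Krt12 itself went from 6 to 2405 counts. Within this span the minocycline libraries still differed, with intervals of 53.5 to 62.4 and 31.9 to 37.4 that did not overlap. Calml3 ranged from 33.3 in control 2 to 10.8 in minocycline B, a span of 3.10-fold. Tmprss11a and Anxa8 each spanned 7.17-fold, from counts of 1 to 5 outside the minocycline group. Sdc1 spanned 13.4-fold, and its intervals in both controls lay above those of both minocycline libraries. Trim29 and Fam83a had libraries with 0 counts and are given no span. Emp1 was 249 and 280 after light but 16.3 and 22.4 with minocycline. Tgfbi was 53.5 and 47.7 after light but 4.56 and 2.33 with minocycline. Mal likewise was 177 and 88.3 after light and 13.0 and 13.5 with minocycline. Emp1, Tgfbi and Mal therefore did not keep a constant ratio to Krt12, and their counting intervals after light and with minocycline did not overlap. The control ratios rest on 6 Krt12 counts in control 2 and are imprecise.

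**Figure D4:**
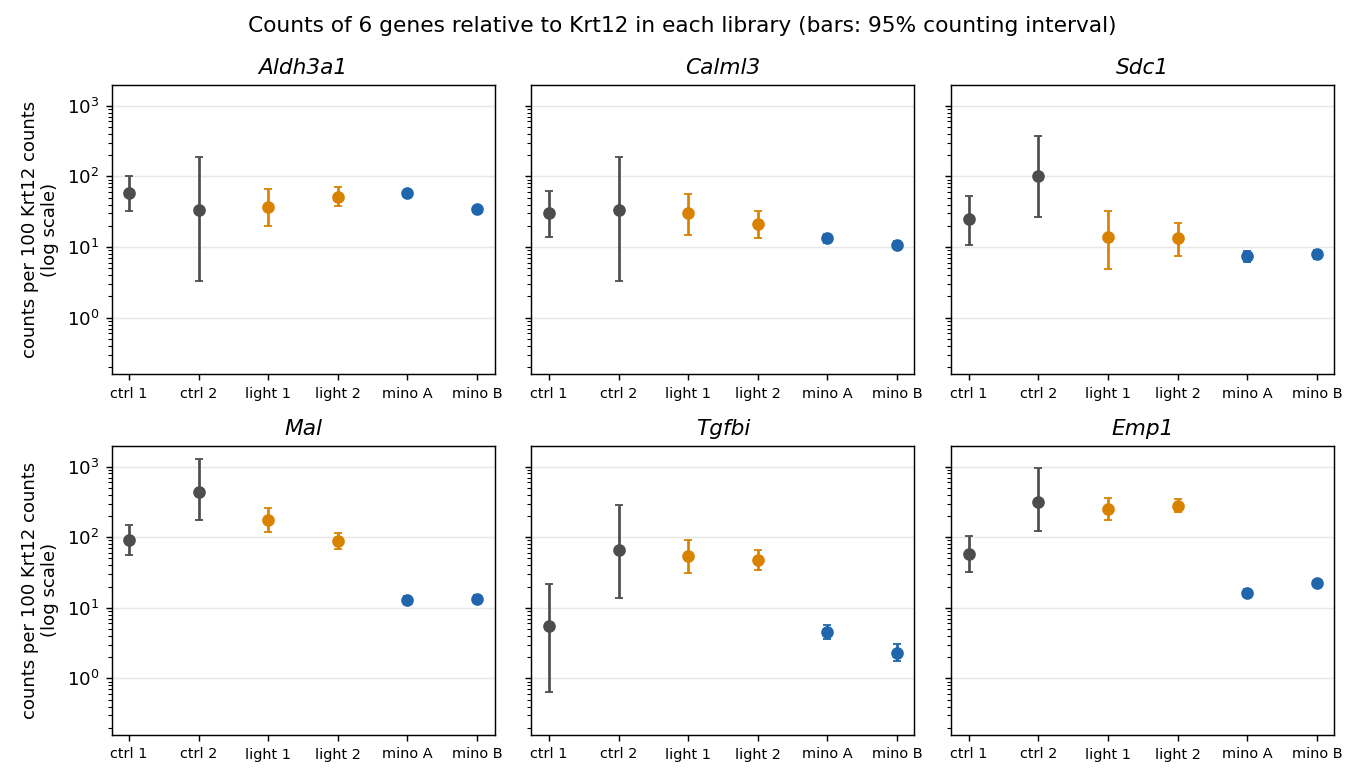
Counts per 100 Krt12 counts in each library for 6 of the genes on a log axis, with 95% counting intervals. Aldh3a1 stays between 33.3 and 58.3 in all 6 libraries, whereas Emp1 is at 249 and 280 after light and at 16.3 and 22.4 with minocycline.

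Across the 6 libraries, log2 CPM of Calml3, Tmprss11a, Sdc1, Anxa8, Trim29, Fam83a and Aldh3a1 correlated with each other at Pearson's r of 0.947 to 0.998. Emp1 and Tgfbi correlated with each other at 0.955, but with these 7 genes only at 0.701 to 0.834 and 0.644 to 0.785. Mal stood between, at 0.893 to 0.965 with the 7 genes. These values describe 6 libraries that share their groups and depth, and the 7 genes share the large step that selected them. The 10 genes outside the selection with the most similar profile were 1600029D21Rik, Mall, Krt12, Elf3, Lgi2, Trp63, Mctp2, Cldn4, Aqp5 and Ace, with r of 0.986 to 0.994 to the mean profile. Krt12 was the nearest gene of Calml3, Trim29 and Aldh3a1, Col17a1 of Tmprss11a, Sdc1 and Anxa8, and Trp63 of Fam83a. The nearest gene of Emp1 was Wnt4, that of Mal was Ptx3 and that of Tgfbi was Zfp773.

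Per length, as CPM divided by exon length in kilobases (RPKM), the order of the genes changed between groups. In the controls Mal had the highest mean at 0.753 RPKM, and Aldh3a1 and Calml3 followed at 0.422 and 0.326. The control values of Aldh3a1, 0.0724 to 0.772 RPKM, overlapped those of Mal, 0.658 to 0.848 RPKM, and those of Calml3, so the order of Mal and Aldh3a1 and of Aldh3a1 and Calml3 is not resolved. After light Emp1 (1.95), Mal (1.76) and Aldh3a1 (1.05) had the highest means, and the libraries of all 3 overlapped with each other, so their order is not resolved. With minocycline the order was Aldh3a1 (22.6 and 23.4 in the single libraries), then by their means Calml3 (8.48), Mal (4.92), Emp1 (3.48), Sdc1 (2.08) and Anxa8 (1.52). Trim29 (0.908), Tgfbi (0.868), Tmprss11a (0.766) and Fam83a (0.764) lay lowest, and their libraries overlapped. Mal and Emp1 also overlapped, as did Emp1 and Sdc1, and Sdc1 and Anxa8, whereas Aldh3a1 and Calml3 were separated from all others.

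Relatives of the 10 genes by family (calmodulins, Tmprss11 proteases, syndecans, annexins, PMP22, Mal, Fam83, Aldh3 and fasciclin genes) were listed as well. Between minocycline and light-exposed, edgeR called 0 of the 32 tested, with 7 higher and 6 lower at an unadjusted p under 0.05, and DESeq2 called 1 higher and 2 lower. Over all 14750 genes these counts were 1334 higher and 1783 lower at an unadjusted p under 0.05, and 106 and 290 with DESeq2. Between minocycline and control it called 0 of 30, with 15 higher at an unadjusted p under 0.05 and 2 called higher by DESeq2. Of all 14181 genes tested there, 764 were higher at an unadjusted p under 0.05 and DESeq2 called 99 higher. Of the proteases, Tmprss11g had 0 and 0 counts in the controls, 1 and 1 after light, and 18 and 45 with minocycline (log2 fold change 4.77 against light-exposed, edgeR adjusted p = 0.0698). Mall had 2 and 1, 4 and 11, and 24 and 32 counts. Syndecan-4 was level at 57.0 to 70.6 CPM in all libraries, unlike Sdc1.

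After light, 6 of 9 tested annexins were higher at an adjusted p under 0.05, beside 7.52% of all tested genes, and Anxa7, Anxa9 and Anxa11 did not pass. Anxa3 (log2 fold change 3.59, SE 0.56, edgeR adjusted p = 0.0132) and Anxa4 (2.70, SE 0.50, edgeR adjusted p = 0.0223) were called. Emp3 rose from 0.4995 and 0.492 CPM to 2.39 and 4.88 CPM (log2 fold change 2.87, SE 0.51, edgeR adjusted p = 0.0132). Anxa3, Anxa4 and Emp3 were lower with minocycline than after light in every library but Emp3 of minocycline B, which lay between the light-exposed libraries. Between minocycline and light-exposed, edgeR called 0 of the 9 tested annexins and 0 of the 3 tested relatives of Emp1. At an unadjusted p under 0.05, 4 annexins were lower and 1 relative of Emp1 was higher, and DESeq2 called 1 annexin lower. Aldh3a2 (log2 fold change 0.62, edgeR adjusted p = 0.0319) and Aldh3b1 (1.95, edgeR adjusted p = 0.0234) were also higher after light, below the fold cutoff. The relatives of Tgfbi summed to 12.3 and 13.7 CPM in the controls and 39.0 and 98.3 CPM after light, most of it from Stab1, a scavenger receptor of macrophages and endothelium (log2 fold change 4.01, SE 0.76, edgeR adjusted p = 0.0706), whereas Postn gave 0.10 (SE 0.28, edgeR adjusted p = 0.850).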

How the data were processed

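Retinal RNA was measured in 6 libraries, 2 per group. The authors prepared stranded mRNA libraries, mapped reads to mm10 with STAR (RNA Express) and deposited gene counts, which are whole numbers without scaling, although the data statement calls them normalized. Annotation, versions and use of strand in counting are not given in the sources used here. All value columns were used (0 unused). Pairs of groups were tested by robust quasi-likelihood fits of edgeR 4.0.16 (R 4.3.3) after filterByExpr and TMM. Calls required 0.05 as the highest Benjamini-Hochberg adjusted p over all tested genes, with log2 fold changes of 2 or more in size. Log2 CPM used a prior count of 2. RPKM used GENCODE exon lengths of 23060 genes matched by symbol or synonym. Ratios of single libraries carry exact binomial (Clopper-Pearson) 95% intervals, which cover counting error only. Scripts were tested on simulated counts with a single fixed spread, in which only genes well above the floor were changed. That test does not cover genes with few counts.

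The 10 genes and all 26 marker lists were chosen with earlier results of these data known. Named genes were the 10 genes, the 10 most similar profiles, the nearest gene of each, the 3 most abundant genes of each list and called family members. Called genes of other lists, Kera, Nrl, Anxa9, Anxa11, Mall, Tmprss11g, Krt12 per library and the Krt12 ratio were singled out after their values were seen. Anxa8 overlaps A630023A22Rik on the other strand without shared exon bases. The alternatives were DESeq2 1.42.0, other normalizations and filters, all libraries in one fit, a replicate block and each library left out. No outlier test is possible with 2 libraries per group. Reads were not analysed here.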

Additional observations from a re-analysis of the deposited data

How the results depend on the processing

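Of the 10 genes, 2 were called after light. This became 0 with DESeq2 with shrunken fold changes and 1 under a filter of 10 counts in each library, where Tgfbi was not tested, and 0 to 2 with each library left out. The counts with minocycline rest on the values that chose the genes and are a description. Against light-exposed, 1 was called. This became 7 with DESeq2 without shrinkage, with no filter and with all 6 libraries in one fit, 2 with shrunken fold changes or without robust estimation, 0 with upper quartile, total library size or DESeq2 size factors, and 0 to 7 with each library left out. Against control, 9 were called, and 0 with shrunken fold changes, in one fit or under the filter of 10 counts, and 0 to 9 with each library left out. The cause was not tested, except that the filter of 10 counts left only 2 of the 10 genes to test in both comparisons with control.

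Over all genes, 419 were called after light, 1624 with no fold cutoff, 73 with shrunken fold changes, 145 with at least 10 counts, and 2 to 662 with each library left out. Against light-exposed, 7 were called, 406 with DESeq2 without shrinkage, 28 with shrunken fold changes, 14 without robust estimation, 2 with DESeq2 size factors or upper quartile, 0 with total library size, 281 with no filter and in one fit, and 3 to 494 with each library left out. Against control, 19 were called, 102 with DESeq2 without shrinkage, 0 with shrunken fold changes and in one fit, 97 with no filter, 2 with at least 10 counts, and 0 to 150 with each library left out.

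No fold change reversed under these alternatives, for the 5 genes tested after light and for all 10 in both comparisons with minocycline. The other 5 genes had no fold change after light to compare, and the alternatives that kept them say little at their counts. Total library size moved the median of all genes by 0.24 (log2) after light and by -0.17 between minocycline and light-exposed, and the share of genes with an adjusted p under 0.05 that were higher after light from 66.4% to 93.6%. Between minocycline and light-exposed this share was 25% of only 8 genes, 0% with DESeq2 size factors or upper quartile, 38.6% with DESeq2 without shrinkage, and 0% to 58.6% with each library left out, highest without minocycline A. By raw counts or total library size 8 of the 10 genes, not 9, had both minocycline libraries above the other 4, a check added after the data were seen. With Spearman's rho only 3 of the 10 most similar genes were the same. With the replicate number as a block, Emp1 and Tgfbi stayed called after light (2.90 and 3.28) and 478 genes were called in all. The numbers did not pair the libraries (r = -0.0103 between the deviations of replicate 1 in both groups). No paired analysis was possible because the minocycline columns are unnumbered, in both comparisons that use them. Fits without 1 library assume that the lone library of that group varies like the other groups.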

Other observations

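Genes of other tissues around the retina were also measured. The 8 smooth muscle genes summed to 14.3 to 28.3 CPM in the controls, 21.3 to 27.3 CPM after light and 85.1 to 382 CPM with minocycline. Acta2, smooth muscle actin, had 17 and 79 counts in the controls, 47 and 55 after light, and 541 and 2564 with minocycline. The 11 pigment cell genes summed to 545 to 576, 609 to 776 and 905 to 1892 CPM, and Dct, a melanin synthesis enzyme, had 156 and 588, 321 and 587, and 3419 and 12350 counts. Between minocycline and light-exposed, edgeR called 0 of 7 and 0 of 10 tested genes, with median log2 fold changes of 3.62 and 3.78. At an unadjusted p under 0.05, 6 and 7 were higher, and DESeq2 called 7 and 7. Against control, edgeR again called 0 and 0, with 5 and 4 higher at an unadjusted p under 0.05, and DESeq2 called 2 and 2. The 11 stroma and fibroblast genes summed to 32.0 to 47.7 CPM in the controls, 57.8 to 154 CPM after light and 76.8 to 219 CPM with minocycline, so that the sums of the last 2 groups overlapped. Of 9 tested, 8 had a log2 fold change above 0 against light-exposed, with a median of 3.21, and edgeR called 0, with 6 higher and 1 lower at an unadjusted p under 0.05 and 6 called by DESeq2. Against control the median was 3.17, and edgeR called 0, with 8 higher at an unadjusted p under 0.05 and 4 called by DESeq2. Kera, a marker of corneal stroma, had 0 or 1 count in every library.

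Of the 7 salivary and lacrimal gland genes, 5 were at 0 in every library. Prb1 had 0 and 12 counts in the controls, 0 and 1 after light, and 82 and 284 with minocycline, and Prpmp5 had 0 and 3, 0 and 3, and 56 and 226 counts. Between minocycline and both other groups edgeR called 0 of these 2, with 2 higher at an unadjusted p under 0.05, and DESeq2 called 2 against light-exposed and 0 against control. Lens transcripts followed another order. Cryaa had 1 and 2 counts in the controls, 1863 and 1 after light, and 237 and 20 with minocycline, so that light-exposed 1 was highest. Sums with minocycline overlapped those of both other groups for surface epithelial transcription regulators (304 to 440 CPM over all libraries) and epidermal genes (14.8 to 22.5 CPM). Corneal crystallin-like enzymes, at 1129 and 1005 CPM with minocycline, overlapped the controls (882 to 1034 CPM) and lay above the light-exposed libraries (863 to 931 CPM). As the controls already held this much, the sums cannot show a small added amount. Against control edgeR called 0 of 6 tested enzymes, with 5 above 0 and Gsto1 at an adjusted p under 0.05 below the fold cutoff. Against light-exposed it called 0 of 7, with 2 higher and 2 lower at an unadjusted p under 0.05. Goblet cell genes, at 2.06 and 1.32 CPM, overlapped the controls (0.714 to 1.69 CPM) and lay below the light-exposed libraries (2.70 to 4.13 CPM). Most of the sum of the regulators came from Pax6, which retinal neurons also make, at 185 to 319.5 CPM. Of 12 regulators tested between minocycline and control, 12 had a log2 fold change above 0, with a median of 1.31 beside 0.02 over all genes. There edgeR called 0, with 8 higher at an unadjusted p under 0.05, and DESeq2 called 1. Against light-exposed, 9 of 13 were above 0 with a median of 0.86, and edgeR called 0, with 7 higher and 1 lower at an unadjusted p under 0.05 and 2 called higher by DESeq2.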
